A study of Mus musculus with 10 samples.

Results

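The 10 genes described here belong to the myostatin, activin and TGF-beta pathway, measured by RNA sequencing in the tibialis anterior of Lrtm1 knockout and control mice. They were chosen by symbol from the 13492 genes of the deposited table: the ligand Mstn, its inhibitor Fst, the receptors Acvr2a, Acvr2b, Acvr1b and Tgfbr1, and the signal carriers Smad2, Smad3, Smad4 and Smad7. Each symbol matched 1 row, so all 10 were found, and all 10 passed the filter on low values (a mean of at least 0 log2 CPM, CPM being counts scaled to the library total). The choice was made with earlier results of the comparison between genotypes known. The differences of these 10 genes between genotypes are therefore a description, and no p-value is given for them.

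The tibialis anterior, a fast-twitch muscle at the front of the lower hind limb, was taken after a 3 h fast from mice 6 months old on a C57BL/6 background. By the labels there are 5 knockout libraries (genotype label Lrtm1 KO) and 5 control libraries (genotype label Lrtm1 WT, called floxed controls in the series' design text), while that text gives 4 per group. The libraries come from 3 litters, 108 with 2 knockout and 1 control, 110 with 1 and 2, and 112 with 2 and 2. The promoter or tissue of any Cre recombinase and the deleted part of Lrtm1 are not stated in the sources used here, and the labels do not say that each library is a separate animal, so the errors measure the spread between these samples, which may be technical. Defining markers of skeletal myofibres were abundant, with all 8 of the list in the table at a summed level of 107000 to 127000 CPM in controls and 121000 to 126000 CPM in knockouts.

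Myostatin and the activins are secreted growth factors of the TGF-beta superfamily, and myostatin is made mainly by skeletal muscle, where it restrains muscle mass. A ligand binds a type II receptor, which activates a type I receptor, which phosphorylates the receptor Smads Smad2 and Smad3. These join the common partner Smad4, enter the nucleus and act on target genes, many of which carry the short Smad box in their control regions. Smad7 is an inhibitory Smad that the pathway itself induces, and follistatin, the product of Fst, traps myostatin and activins outside the cell.

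Smad3 was the member with the largest difference, 1.27-fold higher in the libraries labelled knockout. Acvr2b (1.22-fold) and Smad4 (1.08-fold) were also higher, Acvr1b was lower (1.2-fold) and Smad2 slightly lower (1.06-fold). In these 5 genes every knockout library lay on the same side of every control library. Mstn, Fst, Acvr2a, Tgfbr1 and Smad7 overlapped between the groups. The median log2 difference of the 10 was 0.01, against -0.004 over all 12223 genes tested.

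Differences were fitted over all genes with limma, with litter and genotype as terms. The deposited values had already been adjusted by the authors: litter differences were at rounding error, and the residuals filled 3 of 6 possible dimensions, so 3 further terms had been removed. The fit used here counts those 3 removed terms, and 41 of the 12223 genes (0.335%) passed an adjusted p of 0.05 in it, 33 higher (0.27%) and 8 lower (0.0655%). The fit on litter and genotype alone gives the same differences with smaller errors and called 1054 genes (8.62%), 629 higher (5.15%) and 425 lower (3.48%). Of the members, 1 passed in the first fit, Smad3, and 4 in the other, Smad3, Acvr2b and Smad4 higher and Acvr1b lower. Groups that did not overlap, as in 5 members, were seen in 16.2% of all genes tested (3 members and 8.56% of genes with knockouts higher, 2 members and 7.63% with knockouts lower). The direction was the same in all 3 litters for 7 members and for 47.9% of all genes. Nothing is read from these member counts, since the members were chosen with this contrast known. Gaps between groups and differences within litters are of adjusted values throughout. The authors' adjustment took variation out of the groups, so gaps and agreement between litters can look clearer than before it.

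Lrtm1 itself was higher, not lower, in libraries with the knockout label. Its level was 5.61, 5.66, 5.73, 5.65 and 5.78 log2 CPM in controls 1, 3, 4, 5 and 6 and 6.20, 6.12, 6.10, 5.97 and 6.21 in knockouts 1 to 5, a log2 difference of 0.44 (SE 0.07) upward. All knockout libraries lay above all controls, so the level of the targeted gene goes against the labels. A read count over the whole gene may include exons that were not deleted, in which case it is no check of the genotype. Every direction in the text is between libraries as labelled.

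**Figure D1:**
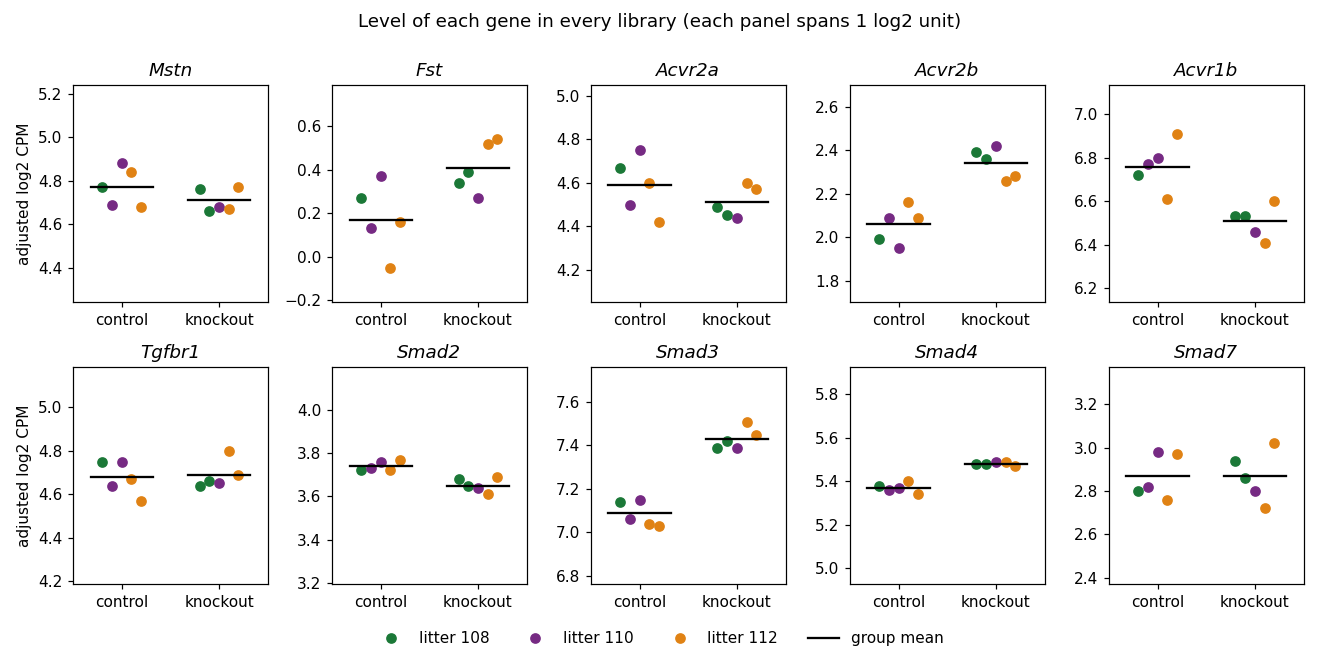
Adjusted log2 CPM of the 10 genes in every library, controls on the left and knockouts on the right of each panel, points coloured by litter and lines at the group means of 5. Each panel spans 1 log2 unit. Smad3, Smad4 and Acvr2b sit higher in all 5 knockout libraries than in any control, and Acvr1b and Smad2 sit lower.

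Mstn, the myostatin ligand, differed little between the groups. Control libraries read 4.77, 4.69, 4.88, 4.84 and 4.68 log2 CPM and knockout libraries 4.76, 4.66, 4.68, 4.67 and 4.77. The 2 ranges overlapped, with controls 4 and 5 above every knockout library. The means were 4.77 ± 0.09 and 4.71 ± 0.05 (SD, n = 5 each), a log2 difference of -0.07 (SE 0.07, 95% interval -0.23 to 0.10). Within litters the difference was -0.06, -0.11 and -0.04 in litters 108, 110 and 112.

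Fst, the extracellular trap for myostatin, was the least abundant member. It ranged from -0.05 to 0.37 log2 CPM in controls (median 0.16) and from 0.27 to 0.54 in knockouts (median 0.39). Control 4 at 0.37 lay inside the knockout range and control 1 at 0.27 at its lower edge, so the groups overlapped. The log2 difference of 0.24 (SE 0.20, 95% interval -0.21 to 0.69) came mostly from litter 112, where it was 0.48, against 0.09 in litter 108 and 0.02 in litter 110. Ratios here and below use the length of the longest annotated transcript, and their size depends on that choice. Mstn stood at 26.3 ± 3.25 times Fst per transcript length in controls and 21.3 ± 1.75 times in knockouts (SD, n = 5 each). These ratios did not overlap (24.4 to 32.1 against 19.1 to 23.2). The pairs were picked among members chosen with this contrast known, and ratios of other gene pairs were not computed. Nothing is therefore read from the separation of this ratio or of those below. At 1.13 ± 0.12 CPM in controls and 1.33 ± 0.11 CPM in knockouts (SD, n = 5 each), Fst is close to the filter on low values.

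Of the 2 activin type II receptors, which bind myostatin and activins directly, Acvr2b was higher in every knockout library than in any control, and Acvr2a overlapped between the groups. Acvr2b (ENSMUSG00000061393), the type II receptor with high affinity for myostatin, lies on chromosome 9 from 119402118 to 119434995, plus strand (GENCODE M21, GRCm38). It read 1.99, 2.09, 1.95, 2.16 and 2.09 log2 CPM in controls and 2.39, 2.36, 2.42, 2.26 and 2.28 in knockouts. The lowest knockout library lay 0.10 above the highest control. The log2 difference was 0.29 (SE 0.11, 95% interval 0.04 to 0.54), and it was 0.39 and 0.40 in litters 108 and 110 but 0.14 in litter 112.

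Acvr2a, the paralogue of Acvr2b, ranged from 4.42 to 4.75 log2 CPM in controls and from 4.44 to 4.60 in knockouts, and the groups overlapped. Its log2 difference was -0.08 (SE 0.09), negative in litters 108 and 110 (-0.20 and -0.18) and positive in litter 112 (0.07). Per transcript length, Acvr2a stood at 3.26 ± 0.46 times Acvr2b in controls and 2.52 ± 0.25 times in knockouts (SD, n = 5 each). These ratios ranged from 2.81 to 3.9 and from 2.27 to 2.84, so they met at the edge and the groups were not apart.

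Of the type I receptors, the kinases that phosphorylate the receptor Smads, Acvr1b was lower and Tgfbr1 was level. Acvr1b (ENSMUSG00000000532, also called ALK4), the usual partner of activin and myostatin, lies on chromosome 15 from 101174067 to 101213684, plus strand (GENCODE M21, GRCm38). It read 6.72, 6.77, 6.80, 6.61 and 6.91 log2 CPM in controls and 6.53, 6.53, 6.46, 6.41 and 6.60 in knockouts. The highest knockout library was only 0.01 below the lowest control, control 5. The log2 difference was -0.26 (SE 0.07, 95% interval -0.42 to -0.10), with -0.19, -0.33 and -0.26 in litters 108, 110 and 112. Without control 5 it was -0.31 and without control 6 it was -0.21.

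Tgfbr1 (ALK5), the type I receptor of TGF-beta that myostatin can also use, ranged from 4.57 to 4.75 log2 CPM in controls and from 4.64 to 4.80 in knockouts. Its log2 difference was 0.01 (SE 0.07, 95% interval -0.15 to 0.17), and the sign changed between litters, from -0.10 in litter 108 to 0.13 in litter 112. The level of Acvr1b per transcript length was 5.57 ± 0.65 times that of Tgfbr1 in controls and 4.6 ± 0.37 times in knockouts (SD, n = 5 each). All 5 knockout ratios (3.98 to 4.89) lay below the lowest control ratio (5.02).

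**Figure D2:**
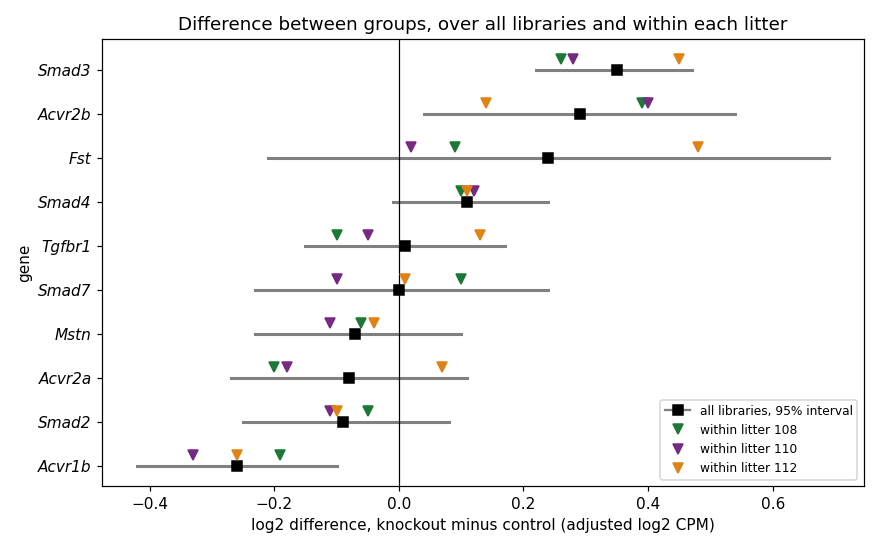
Log2 difference of each gene, knockout minus control, over all libraries (black squares, with bars for the 95% interval of the limma fit that counts the removed terms) and within each litter (coloured triangles, drawn just above). Triangles lie on 1 side of 0 in all 3 litters for 7 genes, and straddle it for Smad7, Acvr2a and Tgfbr1.

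Smad3 (ENSMUSG00000032402) lies on chromosome 9 from 63646767 to 63757994, minus strand, and Mstn on chromosome 1 from 53061640 to 53068079, plus strand (GENCODE M21, GRCm38). The 250 bases just upstream of the start of each are shown because Smad3 had the largest difference and Mstn is the ligand, and the 2 windows differ plainly in base composition (RefSeq, GRCm38.p6, each 5′ to 3′ on the gene's strand, with Smad boxes in capitals).
Smad3 (chr9:63757995-63758244, minus strand): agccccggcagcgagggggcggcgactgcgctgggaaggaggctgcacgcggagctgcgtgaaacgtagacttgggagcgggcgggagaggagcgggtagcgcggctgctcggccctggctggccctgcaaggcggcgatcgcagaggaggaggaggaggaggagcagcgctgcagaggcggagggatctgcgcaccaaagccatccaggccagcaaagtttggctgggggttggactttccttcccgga
Mstn (chr1:53061390-53061639, plus strand): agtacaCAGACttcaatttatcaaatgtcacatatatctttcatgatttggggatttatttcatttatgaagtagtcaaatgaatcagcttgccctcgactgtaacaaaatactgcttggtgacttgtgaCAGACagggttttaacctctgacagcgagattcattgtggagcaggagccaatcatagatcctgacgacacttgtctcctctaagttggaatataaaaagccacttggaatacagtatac
The Smad box was searched as CAGAC on both strands. The Mstn window holds 2 and is AT-rich, with a G and C content of 38.4%, while the Smad3 window holds none at 69.2%. Of 32851 promoter windows of this length, 42.2% hold at least 1 Smad box. The Mstn window also holds 1 TATA box (TATAAA, in 12.4% of windows, both strands) and 4 E-boxes (CANNTG, in 66.2%), motifs that the Smad3 window lacks and that overlap neither each other nor the Smad boxes here. Windows of Acvr1b and of the 5′ start of Tgfbr1 hold no Smad box, those of Acvr2a and Acvr2b hold 1 each, and a further Tgfbr1 start has 1. A match is a description of the letters only.

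Smad3, the receptor Smad that binds DNA directly, read 7.14, 7.06, 7.15, 7.04 and 7.03 log2 CPM in controls 1, 3, 4, 5 and 6 and 7.39, 7.42, 7.39, 7.51 and 7.45 in knockouts 1 to 5. The lowest knockout library was 0.23 above the highest control, the widest gap of the 10 genes. On the linear scale the level was 136 ± 5.56 CPM in controls and 173 ± 6.39 CPM in knockouts (SD, n = 5 each). The log2 difference was 0.35 (SE 0.06, 95% interval 0.22 to 0.47), larger in size than that of 95.5% of all genes tested. Within litters it came to 0.26 (108), 0.28 (110) and 0.45 (112), the last being where control libraries were at their lowest and knockouts at their highest.

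Leaving out any 1 library kept the Smad3 difference between 0.32 and 0.38. With fewer libraries the gene stayed past the threshold in 4 of 10 such fits. It fell short without controls 1, 3, 5 or 6 (differences of 0.38, 0.34, 0.33 and 0.33) and without knockouts 3 or 5 (0.37 and 0.34), and also when the variance was fitted without a trend on mean expression (0.35). Smad3 was chosen with this contrast known, so nothing is read from where it passed or fell short.

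Smad2, the other receptor Smad of this arm, did not follow Smad3. It read 3.72, 3.73, 3.76, 3.72 and 3.77 log2 CPM in controls and 3.68, 3.65, 3.64, 3.61 and 3.69 in knockouts, lower in all 5 knockout libraries by a gap of 0.02. The log2 difference was -0.09 (SE 0.07, 95% interval -0.25 to 0.08). Per transcript length, Smad3 was 16.2 ± 0.72 times Smad2 in controls (15.3 to 17.1) and 21.8 ± 1.16 times in knockouts (20.8 to 23.8; SD, n = 5 each), with no overlap.

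Smad4, the partner shared with the bone morphogenetic protein (BMP) arm, varied least within the groups. It read 5.38, 5.36, 5.37, 5.40 and 5.34 log2 CPM in controls and 5.48, 5.48, 5.49, 5.49 and 5.47 in knockouts. All knockouts lay above all controls by at least 0.07, and the difference was alike in the 3 litters (0.10, 0.12 and 0.11). The log2 difference was 0.11 (SE 0.06, 95% interval -0.01 to 0.24), so the interval, which counts the removed terms, includes 0. The narrow spread within groups and the likeness of the litters are of adjusted values, without the variation removed. Relative to Smad4 and per length, Smad3 went from 2.19 ± 0.09 times in controls to 2.57 ± 0.09 times in knockouts (SD, n = 5 each).

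Smad7, the inhibitory Smad induced by the pathway, ranged from 2.76 to 2.98 log2 CPM in controls and from 2.72 to 3.02 in knockouts, so the knockout range enclosed the control range. Its log2 difference was 0.00 (SE 0.11, 95% interval -0.23 to 0.24). Within litters it came to 0.10 (108), -0.10 (110) and 0.01 (112). Per transcript length, Smad3 was 14.1 to 17.0 times Smad7 in the 5 controls and 18.2 to 23.3 times in the 5 knockouts, so the ratios did not overlap.

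Per transcript length (CPM per kb of the longest annotated transcript, though muscle may express another), Smad3 was the most abundant member and Fst the least. The order and the ratios above depend on this choice of length. The median coding transcript has 605 bases for Smad3 (longest 5090), 1305 for Smad2 (8089) and 2345 for Tgfbr1 (5756). For Acvr1b both lengths are 4418. In controls the order was Smad3 (26.7 ± 1.09), Acvr1b (24.7 ± 1.87), Smad4 (12.2 ± 0.18), Mstn (10.1 ± 0.63), Tgfbr1 (4.45 ± 0.24), Acvr2a (4.25 ± 0.39), Smad7 (1.71 ± 0.12), Smad2 (1.65 ± 0.03), Acvr2b (1.31 ± 0.08) and Fst (0.388 ± 0.04; SD, n = 5 each). Neighbours whose control libraries overlapped were Smad3 with Acvr1b, Tgfbr1 with Acvr2a, and Smad7 with Smad2. In knockouts Smad3 (32.8 to 35.8) stood clear of Acvr1b (19.3 to 22.0). Acvr2b (1.6 ± 0.08) and Smad2 (1.56 ± 0.04) traded places there, with ranges that overlapped.

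**Figure D3:**
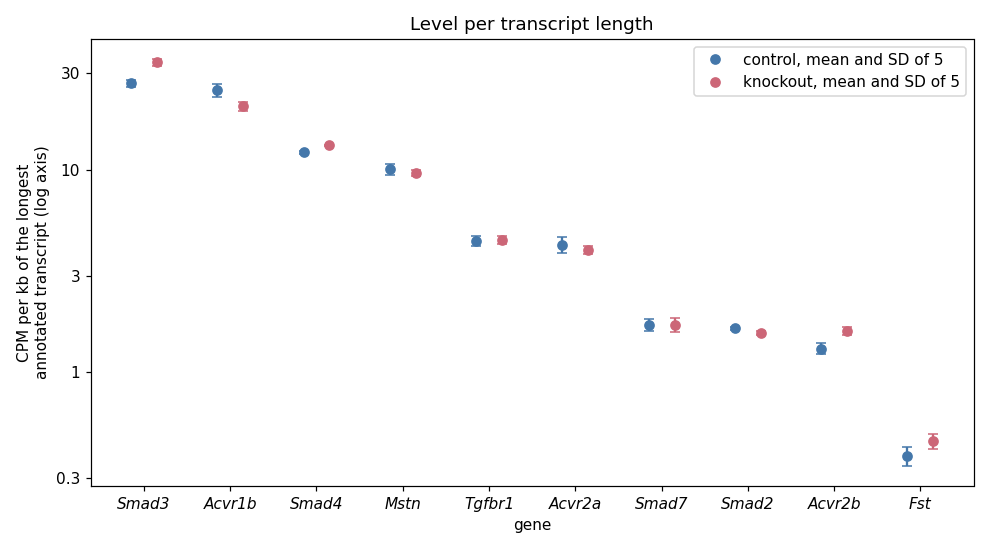
Level of each gene per kb of its longest annotated transcript on a log axis, as mean and SD of 5 control and 5 knockout libraries. Smad3 and Acvr1b are close in controls at 26.7 and 24.7 and apart in knockouts at 33.9 and 20.6 CPM per kb.

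The genes whose pattern over the 10 libraries was most like that of Smad3 were Dlg3, Atm and Mtr (Pearson r = 0.998 each), Eya4 and Rer1 (0.995 each). The most opposite were 2310022A10Rik and 4833420G17Rik (-0.994 each) and Meaf6 (-0.993). After the authors' adjustment the libraries vary only along genotype and 3 residual dimensions, so high values are common: 1.02% of 10876 genes lay above 0.95 and 0.901% were as strongly negative. Rer1 differed by only 0.03 between the groups. Among the members with a mean of at least 1 log2 CPM, r with Smad3 was 0.935 for Smad4, 0.749 for Acvr2b, 0.351 for Tgfbr1, -0.008 for Smad7, -0.148 for Acvr2a, -0.359 for Mstn, -0.825 for Acvr1b and -0.853 for Smad2. Fst, with a mean under 1, has no value. These r take in the difference between groups, so they partly restate the members' differences given above. Of the 10876 genes, 2.88% lay above 0.9 and 2.37% were as strongly negative.

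The other genes of the pathway were taken from 7 lists by role with 149 genes in all, of which 118 were tested. The lists were written with earlier results of these data known, so nothing is read from their counts or shares. In the fit that counts the removed terms 1 passed, Fbxo32, and none fell. This is 0.847% of the genes tested, against 0.335% of all genes. With litter and genotype alone 10 were higher and 3 lower, or 11% against 8.62% of all genes. Their median log2 difference was 0.01. The groups did not overlap in 22 of the 118, against 16.2% of all genes. The other genes named from these lists did not pass in the fit that counts the removed terms and are given as values.

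Over all 12223 genes, 10.1% had an unadjusted p under 0.05 in the limma fit that counts the removed terms, 6.25% higher and 3.83% lower in knockouts. The counts at that p in each list are given beside these shares as a description, since the lists were written with earlier results known. Of 5 ligand genes tested, none passed, with 1 higher and 1 lower at an unadjusted p under 0.05 in limma. Tgfb3, a TGF-beta ligand, differed by 0.12 (SE 0.05; limma adjusted p = 0.477, and 0.0145 with litter and genotype alone), with controls at 5.55 to 5.58 and knockouts at 5.68 to 5.70 log2 CPM. Tgfb2 went the other way, by -0.20 (SE 0.07; limma adjusted p = 0.355, and 0.0162 with litter and genotype alone), from 4.45 to 4.55 in controls and 4.22 to 4.35 in knockouts. Neither ligand overlapped between the groups, as in 16.2% of all genes. Both were named because they passed with litter and genotype alone, so nothing is read from this.

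Among 19 inhibitors, latency proteins and activators, none passed, with 1 higher and 1 lower at an unadjusted p under 0.05. Thbs1, thrombospondin, which can release active TGF-beta from its latent form, had the largest difference of the genes named from the lists. It read 2.68, 2.80, 2.84, 3.05 and 2.90 log2 CPM in controls and 3.65, 3.43, 3.53, 3.16 and 3.51 in knockouts. The difference was 0.60 (SE 0.12; limma adjusted p = 0.0859), with an adjusted p of 0.0118 for litter and genotype alone and 0.0415 with a robust variance. Leaving out each library in turn gave limma adjusted p-values from 0.0263 without knockout 4 (difference 0.70) to 0.308 without control 1 (difference 0.50), and 1 of these 10 fits passed.

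Of 5 further receptors and co-receptors, none passed, with 1 higher and 2 lower at an unadjusted p under 0.05. Eng, endoglin, a co-receptor of endothelial cells, differed by 0.31 (SE 0.08; limma adjusted p = 0.215, and 0.0276 with litter and genotype alone). Tgfbr3, betaglycan, which presents TGF-beta to its receptors, differed by -0.21 (SE 0.08; adjusted p = 0.37 and 0.0396 in the same order). In the BMP arm 0 of 28 passed, with 1 higher and 1 lower at an unadjusted p under 0.05. Its lead gene Acvrl1, another endothelial receptor, differed by 0.26 (SE 0.09; limma adjusted p = 0.325 and 0.025). Beside these, the 5 endothelial markers summed to 232 to 252 CPM in controls and 239 to 250 CPM in knockouts, and none of them passed in either fit or at an unadjusted p under 0.05.

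Among 26 Smad partners, co-repressors and turnover genes, none passed, and 4 were higher and 0 lower at an unadjusted p under 0.05. With litter and genotype alone 3 passed, 11.5% of the list against 8.62% of all genes. Nedd4l, a ubiquitin ligase known to act on Smads, differed by 0.25 (SE 0.06; limma adjusted p = 0.18, and 0.00615 with litter and genotype alone), with controls at 4.99 to 5.10 and knockouts at 5.22 to 5.34 log2 CPM. Smurf2, a ubiquitin ligase of Smads and TGF-beta receptors, differed by 0.17 (SE 0.06; limma adjusted p = 0.345 and 0.00615) and Itch, also a ubiquitin ligase, by 0.17 (SE 0.07; limma adjusted p = 0.419 and 0.0219). None of the 3 overlapped between the groups, and 6 of the 26 in the list did not, against 16.2% of all genes. The 3 were named because they passed with litter and genotype alone, so nothing is read from this.

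None of 23 textbook targets of TGF-beta and Smad3 passed in either limma fit, and none had an unadjusted p under 0.05. Their median log2 difference was -0.03, with 9 above 0 and 14 below. The closest were Loxl2, a collagen cross-linking enzyme, at -0.18 (SE 0.08; limma adjusted p = 0.506), and Pdgfb, a growth factor, at 0.18 (SE 0.09; limma adjusted p = 0.513). Collagen, fibronectin and plasminogen activator inhibitor genes are in this list, and some of its genes are also markers of fibroblasts. The 7 fibroblast markers summed to 491 to 561 CPM in controls and 473 to 527 CPM in knockouts, and none passed in either fit.

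Of 15 atrophy and growth genes, 1 passed, Fbxo32, which encodes the atrophy ubiquitin ligase atrogin-1. It read 8.05, 8.05, 7.98, 7.95 and 8.03 log2 CPM in controls and 8.39, 8.47, 8.44, 8.52 and 8.42 in knockouts, and all knockouts lay above all controls. Fbxo32 rose by 0.44 (SE 0.06; limma adjusted p = 0.0129), and of the alternatives run it fell short only where the variance was fitted without a trend (adjusted p = 0.247). Trim63, the other well-known atrophy ligase, MuRF1, ranged from 6.97 to 7.37 in controls and from 7.27 to 7.53 in knockouts, so the groups overlapped. It differed by 0.34 (SE 0.09; limma adjusted p = 0.245, and 0.0468 with litter and genotype alone).

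Igf1, a muscle growth factor, differed by 0.49 (SE 0.13; limma adjusted p = 0.242, and 0.038 with litter and genotype alone), from 2.72 to 3.29 log2 CPM in controls and 3.32 to 3.64 in knockouts. Rps6kb1, the S6 kinase gene, differed by -0.16 (SE 0.06; limma adjusted p = 0.394 and 0.0146).

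**Figure D4:**
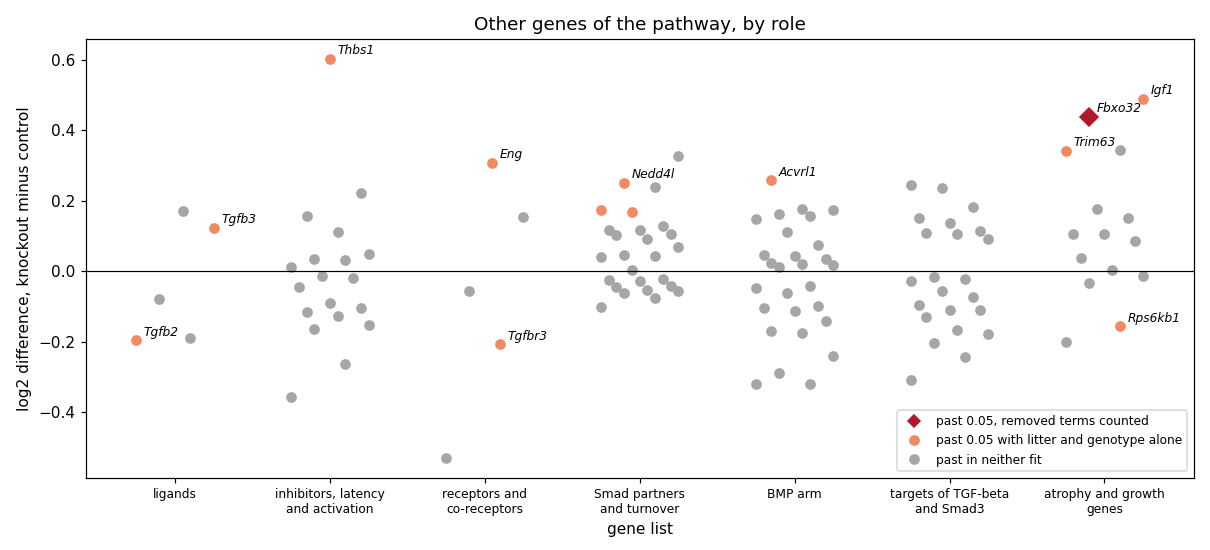
Log2 difference, knockout minus control, of each tested gene of the 7 lists, 1 point a gene in each list that holds it. The diamond is Fbxo32 (0.44), past 0.05 (adjusted p) in the fit that counts the removed terms, orange points passed with litter and genotype alone, and grey points passed in neither fit. The targets of TGF-beta and Smad3 hold no coloured point.

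Several features of the samples moved beside these values. Adipocyte markers were lower in the libraries labelled knockout: the 5 in the table summed to 15.1 to 27.0 CPM in controls and 8.35 to 13.0 CPM in knockouts. None of the 4 adipocyte markers tested passed in limma with the removed terms counted, while 4 of 4 were lower at an unadjusted p under 0.05, against 3.83% of all genes, and Adipoq, Lep and Cfd passed with litter and genotype alone. Satellite cell markers summed to 16.2 to 17.8 against 14.8 to 15.9 CPM and macrophage markers to 34.0 to 40.0 against 32.8 to 35.2 CPM, with no marker past the threshold in either fit. In whole muscle, fewer cells of a type and less RNA per cell cannot be told apart. With genes split into 5 classes by transcript length, the median log2 difference was -0.04 in the class of shortest transcripts and 0.05 in that of the longest. Smad3 and Acvr1b, which differed in opposite directions, both fall in class 4, where the median was 0.01. The part of these marker and length differences in the values of the members was not tested.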

How the data were processed

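The labels' protocols name TRIzol extraction and a directional BGI/MGI kit with oligo dT. Per the submitters' processing notes, fastp, kallisto and limma were used, with no versions; build, annotation and strand setting are not stated in the sources used here. The values are log2 CPM that the authors adjusted before they deposited them, in a single table. Depth per library is unknown, since counts were not used here, so no interval for counting error is printed. Converted back, libraries sum to 960166 to 1016398 CPM.

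Differences were tested with limma 3.58.1 (R 4.3.3, lmFit, eBayes with a trend, two-sided, Benjamini-Hochberg over the 12223 genes whose mean was at least 0 log2 CPM). Terms were genotype, litter and the 3 directions in which no gene varied once these were fitted. SDs leave out the variation the authors removed. No pseudocount was added. The script was tested on simulated data.

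Positions and transcript lengths came from GENCODE M21 (GRCm38; 99.1% of tested genes matched by Ensembl identifier), promoters from RefSeq (GRCm38.p6); 6 members had an entry outside chromosome 18.

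The members, lists and tests were chosen with earlier results of these data known. Named genes are the 10 members, Lrtm1, genes of each list past the threshold in either fit (at most 6, or the 2 closest) and the genes most like Smad3 or opposite to it. Markers of 11 cell types were counted as lists. The markers of lymphocytes and neutrophils (1 tested), smooth muscle (4), Schwann cells (3), tenocytes (4) and erythroid cells (5) had no gene past the threshold in either fit; at an unadjusted p under 0.05, limma gave 1 tenocyte and 1 erythroid marker lower and none in the rest.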

Additional observations from a re-analysis of the deposited data

Results flagged for a closer look

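In 2 genes of the pathway lists 1 library stood apart from the other 4 of its group, by a gap that took most of the group's range. Knockout 4 read 4.95 log2 CPM for Smurf2, against 4.91 to 4.92 in the other knockouts, and 5.06 for Rps6kb1, against at most 5.01 in the others. Both gaps are small in size. In all, 52 groups of 5 libraries were looked at, and chance gives about 1 in 20. No group of the 10 members was among the 2.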

How the results depend on the processing

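With litter and genotype alone, 1054 genes passed across all genes, 13 in the pathway lists and 4 members, because more residual degrees of freedom are counted. Without a variance trend 1 gene passed in all, with 0 in the pathway lists and 0 members. At an unadjusted p under 0.05 that limma fit had 14 of 118 list genes and 3 of 10 members, beside 1122 of all 12223 genes. Here, nothing is read from the counts of list genes or members in any setting. The cause of the lower number passing was not tested. A robust variance gave 2 pathway genes, Thbs1 (adjusted p = 0.0415) besides Fbxo32. With the replicate block, 128 genes passed, 2 of them in the pathway lists, Fbxo32 and Trim63, and 1 member; the labels' numbers do not mark litters, same-numbered libraries correlated at -0.846, 0.452, 0.032 and -0.502, and no library correlated best with its own number. Leaving out 1 library gave 8 to 60 genes, 1 to 2 in the pathway lists and 0 to 1 members. The count was 8 without control 1, 20 without control 5, 17 without control 6 and 11 without knockout 3; leaving out control 1 or knockout 3 also takes a litter out of the comparison. The filters on low values, median centring and dropping the litter term left all 3 counts within 1.5 times. Centring had little to change, since library medians lay between 3.35 and 3.36 log2 CPM. Litter differences were already gone from the deposited values, so the fit without a litter term still counted those directions as removed. Fst has no value where a mean of at least 1 or 2 log2 CPM was required. Every member's difference stayed within 1 SD of its value in every setting. Depth is unknown, which limits Fst most.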
